A study of Mus musculus with 24 samples.

Results

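Messenger RNA of 8 genes was followed, those for the enzymes that turn lanosterol into cholesterol, in cultured mouse oligodendrocytes kept with or without ethanol. The 8 genes were chosen by name, as enzymes of this route, and are, in pathway order, Cyp51, Tm7sf2, Msmo1, Nsdhl, Hsd17b7, Ebp, Sc5d and Dhcr7. All 8 were found by symbol among the 55359 genes of the count table, and all 8 passed the filter on low counts in every comparison. Oligodendrocytes are the cells that wrap axons in myelin. They came from the cortex of C57Bl6J mouse pups of postnatal days 5 to 7, were selected with magnetic beads through the surface antigen O4, and were differentiated in culture for 3 days, mainly by triiodothyronine (T3), before the exposure.

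The 24 wells formed 4 groups of 6, in 2 experiments, which the labels call batches. Experiment 1 held 6 wells with 30 mM ethanol and 6 without ethanol (0 mM). Experiment 2 held 6 wells with 10 mM ethanol and 6 without. Exposure lasted 3 days, and the labels name no transgene and no other agent in any group. Control plates stood in an incubator of their own, so an effect of ethanol and one of the incubator cannot be told apart. Each dose was used in 1 experiment only, which likewise confounds dose with experiment. The labels call the wells biological replicates, but do not say whether they came from separate pups or cultures, so p-values measure the spread between these wells, which may be technical.

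Lanosterol is the first sterol of the pathway. The enzymes after it strip methyl groups from the sterol rings, move one double bond and add or reduce others, on the membrane of the endoplasmic reticulum. Brain cells cannot take cholesterol from the blood, and myelin is unusually rich in it, so oligodendrocytes that build a sheath make large amounts themselves. The genes of the whole route are targets of SREBP2, a transcription factor that is released from the endoplasmic reticulum when its membrane is poor in sterols, and that INSIG proteins hold back.

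Because most of the members differed in 1 direction between the experiments (below), the start regions of 4 of them are shown: Nsdhl, Msmo1 and Cyp51, which differed most between the untreated groups, and Ebp, which did not pass there. Each is the RefSeq window from 250 bases before to 50 bases after the annotated start, on build GRCm38.p6, read 5′ to 3′ on the gene's strand. The counts themselves were made on another build, GRCm39, per the submitters' processing notes. Capitals mark exact matches, on either strand, to CCAAT (reverse complement ATTGG), the box read by NF-Y, and to GGGCGG (reverse complement CCGCCC), the box read by Sp1. Both factors are known partners of SREBP at sterol genes.
Nsdhl, chrX:72918271-72918570, plus strand: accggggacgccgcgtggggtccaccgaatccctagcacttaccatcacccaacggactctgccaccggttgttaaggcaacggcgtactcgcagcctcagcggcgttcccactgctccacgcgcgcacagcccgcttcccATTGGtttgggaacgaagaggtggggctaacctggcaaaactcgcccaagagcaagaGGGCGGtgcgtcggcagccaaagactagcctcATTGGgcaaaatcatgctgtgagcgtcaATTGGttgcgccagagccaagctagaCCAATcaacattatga
Msmo1, chr8:64733529-64733828, minus strand: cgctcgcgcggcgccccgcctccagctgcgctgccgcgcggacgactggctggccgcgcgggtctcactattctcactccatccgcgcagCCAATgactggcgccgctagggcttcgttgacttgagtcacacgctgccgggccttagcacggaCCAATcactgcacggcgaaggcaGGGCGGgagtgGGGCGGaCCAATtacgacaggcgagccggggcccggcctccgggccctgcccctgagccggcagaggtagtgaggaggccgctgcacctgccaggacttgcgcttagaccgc
Cyp51, chr5:4104648-4104947, minus strand: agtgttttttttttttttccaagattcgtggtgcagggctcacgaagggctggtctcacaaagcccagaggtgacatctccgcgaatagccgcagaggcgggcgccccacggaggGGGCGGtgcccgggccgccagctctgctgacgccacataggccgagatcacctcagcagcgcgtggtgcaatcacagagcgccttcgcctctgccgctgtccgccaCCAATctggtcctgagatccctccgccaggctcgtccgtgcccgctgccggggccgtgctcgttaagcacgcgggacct
Ebp, chrX:8193463-8193762, minus strand: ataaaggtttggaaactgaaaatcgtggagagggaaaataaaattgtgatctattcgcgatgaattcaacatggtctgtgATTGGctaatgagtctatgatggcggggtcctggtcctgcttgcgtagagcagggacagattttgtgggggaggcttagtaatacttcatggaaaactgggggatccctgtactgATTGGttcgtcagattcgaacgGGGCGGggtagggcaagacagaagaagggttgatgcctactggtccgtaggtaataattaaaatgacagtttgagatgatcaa

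The table held 10 such windows for the 8 genes, 1 for each and 3 for Dhcr7. CCAAT was found in 4 copies at Nsdhl, 3 at Msmo1 and Hsd17b7, 2 at Ebp, and 1 at Cyp51, Tm7sf2 and Sc5d. At Dhcr7 it was found in 1 of the 3 windows, in 2 copies. All 8 genes thus had the box in at least 1 window, and 7 of the 8 in the first window listed. Of all 32851 windows of this length, 37.4% hold it. GGGCGG was likewise found at all 8, against 35.7% of all windows. The classical sterol regulatory element core TCACNCCAC was in none of the 10 windows and in 1.2% of all. With 1 mismatch allowed it was found at 5 of the 8 genes in any window and at 4 of the 8 in the first, for example as tgacgccac at Cyp51. Of all windows, 24.2% hold such a match. At Msmo1 a match of this kind shares its first base with the last base of a CCAAT box. These matches describe letters in a window and no binding was measured.

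Total counts per well ranged from 1184609 to 1817028 and did not set the groups apart. Levels are given as CPM, counts relative to the library size after TMM scaling over all 24 wells. A floor of 3 counts corresponded to between 1.71 and 2.56 CPM, counting error only. The lowest count of any of the 8 genes in any well was 12, for Tm7sf2. Reads came from near the 3′ end of transcripts, and no levels are compared between genes. The labelled cell type was checked on 11 genes of myelinating oligodendrocytes, whose summed level was between 7083 and 16792 CPM in all wells. Markers of other cells were present too: the 8 astrocyte markers summed to between 3874 and 6656 CPM and the 8 microglia markers to between 118 and 1830 CPM. With bulk RNA, fewer cells of a type and less RNA per cell cannot be told apart.

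The largest differences of the 8 genes lay between the untreated groups of the experiments. Without any ethanol, 7 of the 8 genes were higher in experiment 1 than in experiment 2 (edgeR adjusted p under 0.05). Among all 13479 genes tested, 43.6% passed in this comparison, 21.3% higher and 22.3% lower in experiment 1. The median log2 difference was 0.57 over the 8 genes and -0.01 over all genes. For 5 of the 8 (Cyp51, Msmo1, Nsdhl, Sc5d and Dhcr7), every control well of experiment 1 lay above every control well of experiment 2, which held for 10.6% of all genes; 8.27% had the reverse.

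Nsdhl, whose product takes off a carboxyl group left from a methyl group, differed most. Its level was 33.5, 40.9 and 49.3 CPM (lowest, median and highest of 6 wells) in the controls of experiment 1. In the controls of experiment 2 it was 12.2, 20.3 and 20.9 CPM, all 6 wells below the lowest of experiment 1. The log2 difference was 1.11 (SE 0.144, edgeR adjusted p = 5.3e-10), a 2.16-fold higher level.

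Msmo1 encodes the methyl oxidase that acts just before Nsdhl. Its controls had 165, 183 and 208 CPM in experiment 1 and 92.6, 100.1 and 110 CPM in experiment 2. The 2 ranges were far apart, with a log2 difference of 0.83 (SE 0.0743, edgeR adjusted p = 1.92e-16), 1.78-fold.

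Cyp51 encodes the demethylase that opens the route from lanosterol. It had 179, 205 and 246 CPM in the controls of experiment 1 and 105, 122 and 138 CPM in those of experiment 2. These ranges did not overlap either, and the log2 difference was 0.73 (SE 0.0738, edgeR adjusted p = 5.24e-14). In the GENCODE M21 annotation (GRCm38), Cyp51 shares 166 bases at its 3′ end with Akap9 on the opposite strand. The use of strand in counting is not given in the sources used here, so the Cyp51 counts are uncertain there. Akap9 itself differed the other way between the controls, by -0.27 (SE 0.0841, edgeR adjusted p = 0.00643).

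The later enzymes gave smaller differences. Dhcr7, whose product reduces the last ring double bond to give cholesterol, had 53.5, 65.0 and 76.8 CPM in the controls of experiment 1 and 33.4, 44.5 and 50.1 CPM in those of experiment 2. Sc5d, the desaturase before it, had 137, 156 and 161 against 88.5, 107 and 116 CPM. Both differed without overlap, Dhcr7 by 0.62 (SE 0.108, edgeR adjusted p = 1.82e-06) and Sc5d by 0.52 (SE 0.0745, edgeR adjusted p = 1.02e-08).

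The other 3 members differed less or did not pass. Tm7sf2, one of the reductases that act after Cyp51, had 15.9, 21.1 and 25.8 CPM against 10.6, 14.4 and 19.3 CPM, with overlapping wells (log2 difference 0.49, SE 0.180, edgeR adjusted p = 0.022). It did not pass without replicate 3 of the experiment 1 controls or replicates 2 or 5 of the experiment 2 controls (edgeR adjusted p = 0.0679, 0.0639 and 0.0584). It overlaps the 3′ end of Vps51 on the same strand by 532 bases in the same annotation, and its counts are the lowest of the 8. Vps51 itself differed by 0.09 (edgeR adjusted p = 0.755). Hsd17b7, the ketoreductase that completes the removal of methyl groups, had 98.0, 105 and 122 CPM against 65.5, 85.1 and 102 CPM (log2 difference 0.35, SE 0.0863, edgeR adjusted p = 0.000667). Ebp, the isomerase that shifts the ring double bond, had 45.5, 49.2 and 58.4 CPM against 39.9, 43.0 and 48.6 CPM and did not pass (log2 difference 0.22, 95% confidence interval 0.01 to 0.44, edgeR adjusted p = 0.0844).

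**Figure D1:**
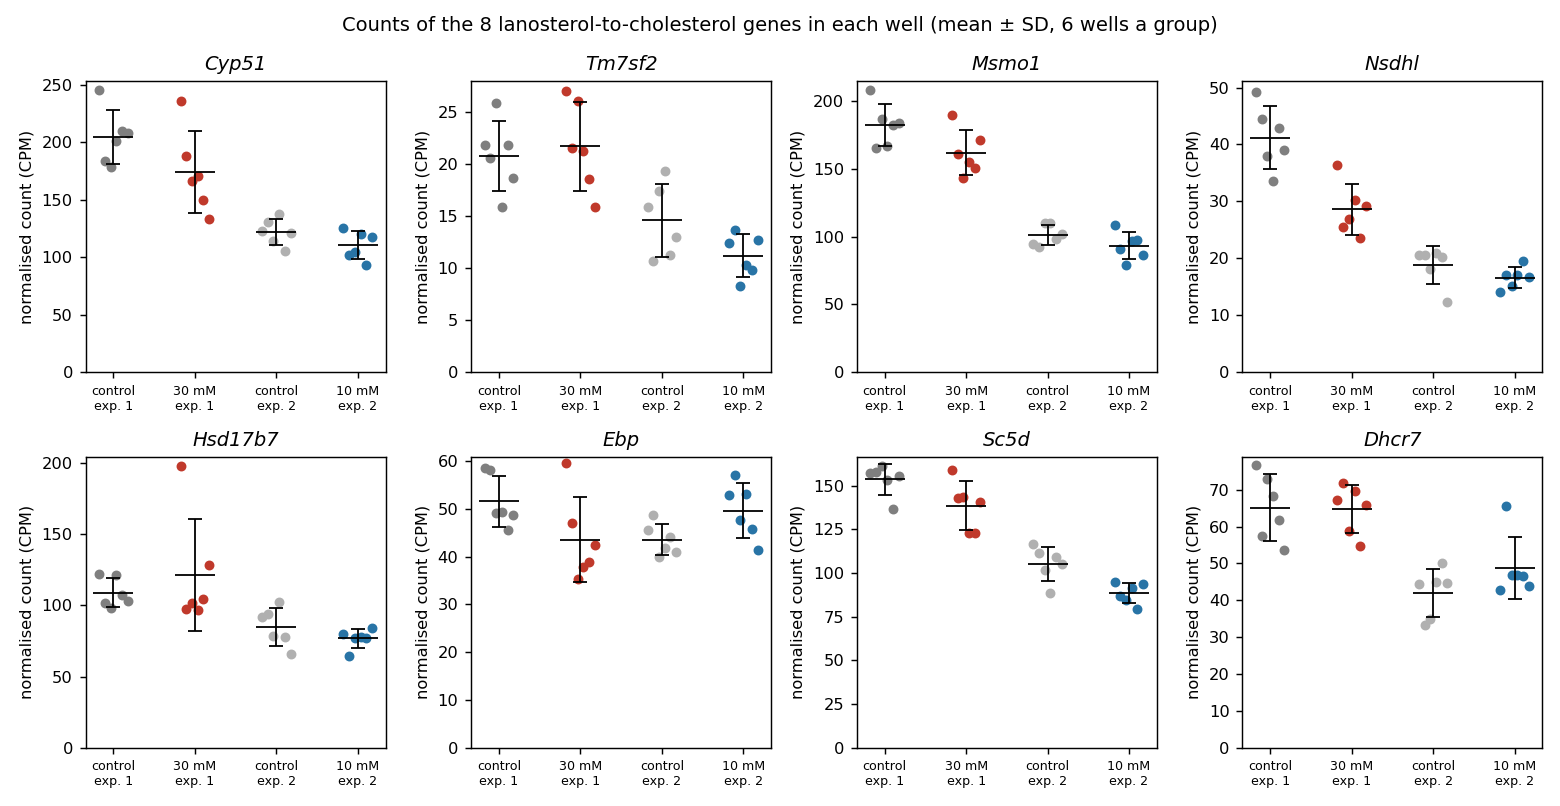
Normalised count (CPM, vertical axes from 0) of each of the 8 genes in each of the 24 wells, by group; points are wells and the bars give the mean ± SD of 6 wells. In the panels of Cyp51, Msmo1, Nsdhl, Sc5d and Dhcr7 all 6 control wells of experiment 1 lie above all 6 of experiment 2, and in the Hsd17b7 panel 1 well at 30 mM stands alone at 198 CPM.

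The genes upstream of lanosterol differed in the same comparison. All 10 tested genes of the route from acetyl-CoA to lanosterol were higher in the controls of experiment 1, with a median log2 difference of 0.59. Hmgcs1, which encodes the synthase that makes HMG-CoA, differed by 1.01 (edgeR adjusted p = 1.58e-25) and Lss, the cyclase that makes lanosterol, by 1.06 (edgeR adjusted p = 7.16e-11). Idi1 had too few counts to be tested, at most 6.90 CPM. Of the 12 genes of SREBP control and cholesterol uptake, 11 were tested, 6 were higher and 2 lower. Stard4, a carrier of sterols between membranes, differed by 0.71 (edgeR adjusted p = 6.4e-08) and Insig1 by 0.56 (edgeR adjusted p = 2.79e-08).

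Other cells differed between the same control wells. All 6 tested microglia markers were lower in experiment 1, with a median log2 difference of -2.94, and their sum ranged from 118 to 204 CPM there and from 1251 to 1580 CPM in experiment 2. No microglia marker was at 0 in all wells. P2ry12 was at 0 in 2 of the 24 and Tmem119 in 1. The 9 mural and fibroblast markers summed to between 1059 and 1425 CPM in experiment 1 and between 550.0 and 692 CPM in experiment 2. Of these 9, 4 were higher in experiment 1, the contractile genes Acta2, Tagln, Cnn1 and Myl9, and 3 were lower, Col1a2, Dcn and Lum. Acta2 had 376 ± 48.2 against 24.7 ± 3.90 CPM, and Col1a2 159 ± 21.8 against 209 ± 24.5 CPM (SD, n = 6). Of 7 tested astrocyte markers, 3 were higher and 3 lower. The myelinating oligodendrocyte markers overlapped, with sums from 7660 to 9347 and from 7083 to 9045 CPM, and 1 of 11 passed, lower. The part of cell makeup in the differences of the 8 genes was not tested.

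The next comparison asked whether 30 mM ethanol changed these genes. Of the 8, only Nsdhl passed, and it was lower (edgeR adjusted p under 0.05). Among all 13235 genes tested, 9.67% passed, 3.02% higher and 6.65% lower, so 1 of 8 is near the background. The median log2 fold change of the 8 was -0.15, against 0.02 over all genes, with 6 below 0 and 2 above (Dhcr7, at -0.01, changed sign with upper quartile scaling). No member had ethanol and control wells without overlap, which 1.08% of all genes had in the higher and 3.09% in the lower direction. The control wells here are those of experiment 1 used above, so the 2 comparisons are not independent.

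Nsdhl had 23.6, 28.0 and 36.4 CPM (lowest, median and highest) with 30 mM ethanol and 33.5, 40.9 and 49.3 CPM without. The ranges touched through 1 ethanol well, replicate 1, the others lying between 23.6 and 30.3 CPM, below every control. The mean went from 41.2 ± 5.53 to 28.6 ± 4.50 CPM (SD, n = 6), so that the controls were 1.42-fold higher. On the log2 scale Nsdhl fell by 0.50 (SE 0.134, edgeR adjusted p = 0.0103).

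The other 7 genes did not pass. Cyp51 had 133, 168 and 236 CPM with ethanol and 179, 205 and 246 CPM without (log2 fold change -0.22, 95% confidence interval -0.40 to -0.03, edgeR adjusted p = 0.129). Msmo1 had 144, 158 and 190 CPM against 165, 183 and 208 CPM (-0.16, 95% confidence interval -0.32 to -0.01, edgeR adjusted p = 0.181). In both, the ethanol wells reached lower than any control and 1 of them lay among the controls' highest. Ebp (-0.22, 95% confidence interval -0.46 to 0.02) and Sc5d (-0.14, -0.30 to 0.01) had edgeR adjusted p of 0.258 and 0.257.

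Dhcr7, Tm7sf2 and Hsd17b7 had estimates near or above 0. Dhcr7 was at 64.7 ± 6.55 CPM with ethanol and 65.1 ± 9.04 CPM without (SD, n = 6), and the 95% confidence interval of its log2 fold change, -0.21 to 0.20, leaves room for changes of that size in either direction. Tm7sf2 had a log2 fold change of 0.08 (95% confidence interval -0.26 to 0.42). Hsd17b7 had 96.9, 103 and 198 CPM with ethanol and 98.0, 105 and 122 CPM without (0.17, 95% confidence interval -0.07 to 0.40, edgeR adjusted p = 0.405), so the medians were close and the mean was set by 1 well.

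That well, replicate 1 at 30 mM, was the highest of its group for 7 of the 8 genes, with Dhcr7 the exception. Its 8 genes summed to 972 CPM, where the other 5 wells had 665 to 755 CPM and the controls 789 to 939 CPM. The same well had 16792 CPM of the myelinating oligodendrocyte markers, where the other 5 had 9805 to 10351 CPM. It also had 1594 CPM of the genes upstream of lanosterol, against 1118 to 1259 CPM in the others. The part of the higher oligodendrocyte marker level in these values was not tested. Among the controls of experiment 1, replicate 1 was likewise the highest well for 6 of the 8 genes.

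Without replicate 1 at 30 mM, 2 of the 8 genes passed, both lower, and all 8 estimates were below 0, with a median log2 fold change of -0.20. Tm7sf2 and Dhcr7 were close to 0, at -0.0015 and -0.016. In that fit 11.5% of all genes passed. Nsdhl changed by -0.59 (edgeR adjusted p = 0.00268) and Cyp51 by -0.33 (edgeR adjusted p = 0.00405). Msmo1 and Ebp came close, at edgeR adjusted p of 0.0534 and 0.0522. Hsd17b7 moved from 0.17 to -0.05 and did not pass in either fit (edgeR adjusted p = 0.78 without the well). This fit was compared because the well stood apart in the data. The well was the highest of its group for 7 of the 8 genes, so leaving it out lowers their estimates by itself.

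**Figure D2:**
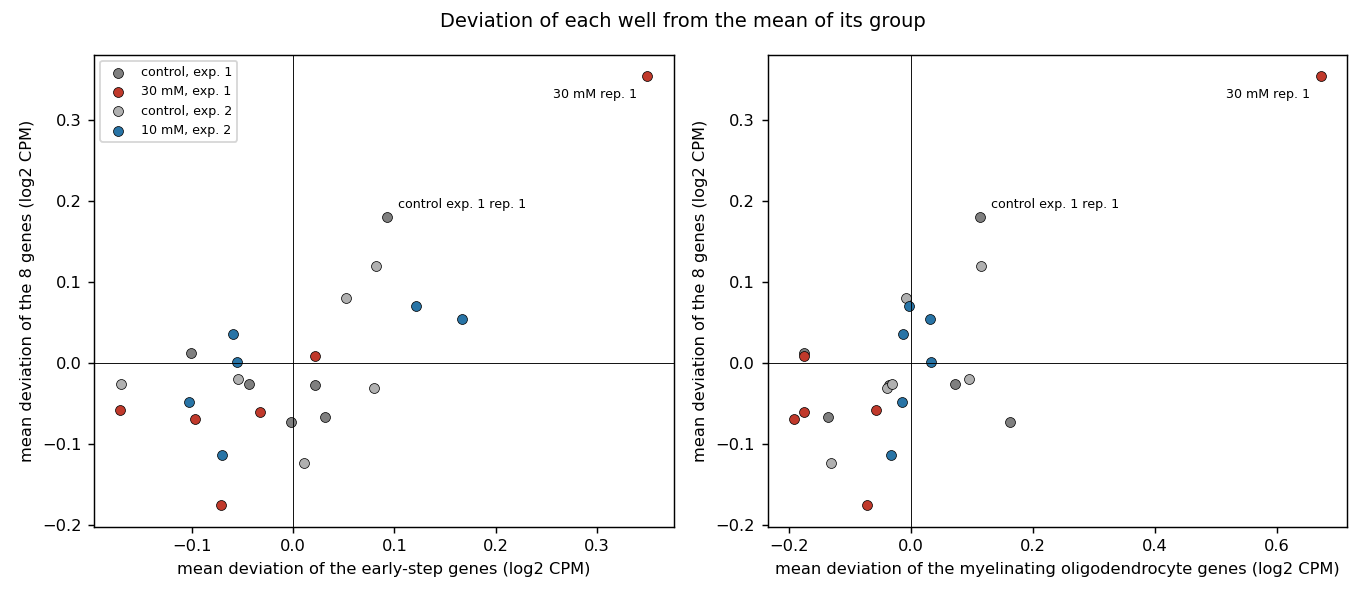
Mean deviation of the 8 genes in each well from the mean of its group (log2 CPM, vertical axes), against the same for the 10 tested genes upstream of lanosterol (left) and 11 myelinating oligodendrocyte markers (right); each point is 1 of 24 wells, coloured by group. Replicate 1 at 30 mM lies apart at 0.35 for the 8 genes, 0.35 for the upstream genes and 0.67 for the oligodendrocyte markers.

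Upstream of lanosterol, 5 of 10 tested genes passed at 30 mM, all lower, with a median log2 fold change of -0.27. Of all genes 9.67% passed, 6.65% lower. Of the 5, 4 are named here. Mvk changed by -0.41, Pmvk by -0.28, Sqle, the squalene oxidase, by -0.26, and Lss by -0.53 (edgeR adjusted p = 0.0177, 0.0252, 0.0312 and 0.00387). Without replicate 1 at 30 mM, 8 of the 10 passed, all lower, where 11.5% of all genes passed. That well had the highest sum of these genes in its group, so leaving it out lowers their estimates by itself. Lss had the largest change upstream of lanosterol and Nsdhl the largest after it.

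Of 11 tested genes of SREBP control and uptake, 2 passed at 30 mM, both lower, with and without replicate 1. Of all genes, 9.67% passed with that well and 11.5% without it. Insig1 went from 121 ± 5.46 to 90.1 ± 11.1 CPM (SD, n = 6; log2 fold change -0.42, edgeR adjusted p = 0.000685). Stard4 changed by -0.54 (edgeR adjusted p = 0.000906). Srebf2, which encodes SREBP2, had -0.07 and did not pass (edgeR adjusted p = 0.611). Lbr and Erg28, from a list of other late-step genes, did not pass at 30 mM or 10 mM with all wells (edgeR adjusted p from 0.367 to 0.899). Without replicate 1 at 30 mM, Erg28 passed there, lower. In this comparison the mural and fibroblast markers fell in 7 of 9 genes, and their sums did not overlap, at 459 to 571 CPM with ethanol and 1059 to 1425 CPM without. Of the 11 oligodendrocyte markers 8 rose, and of 7 tested astrocyte markers 4 rose (Gfap, Aqp4, Slc1a2 and Aldoc), with a median of 0.35 over the 7. Their part in the results on sterol genes was not tested.

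The last ethanol comparison used 10 mM, the moderate dose. None of the 8 genes passed by edgeR, and none had ethanol and control wells without overlap. Only 0.657% of 13538 genes passed at this dose, 0.391% higher and 0.266% lower, and 0.502% and 0.303% had groups without overlap, higher and lower, so a count of 0 among 8 is close to the background. At an unadjusted p under 0.05 there was 1 member, Sc5d, where 1366 of all 13538 genes had such a p. By DESeq2 or limma voom, 0 members passed. The median log2 fold change of the 8 was -0.14, against 0.00 over all genes, with 6 estimates below 0 and 2 above.

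Sc5d had 79.6, 89.1 and 94.8 CPM with 10 mM ethanol and 88.5, 107 and 116 CPM without. Of the 6 control wells, 5 lay above every ethanol well, and the log2 fold change was -0.26 (SE 0.0797, edgeR adjusted p = 0.124). With genes required to have at least 50 counts in 6 wells, fewer genes were tested and Sc5d passed (edgeR adjusted p = 0.0481), while over all alternatives its adjusted p ranged up to 0.406. Nsdhl, the gene that fell at 30 mM, had 14.0, 16.8 and 19.5 CPM against 12.2, 20.3 and 20.9 CPM (-0.18, 95% confidence interval -0.52 to 0.16).

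Cyp51 (-0.14), Msmo1 (-0.13) and Hsd17b7 (-0.15) had small negative estimates, with edgeR adjusted p from 0.55 to 0.635. The widest interval was that of Tm7sf2, at -0.40 (95% confidence interval -0.81 to 0.01). Its counts of 12 to 24 per well in experiment 2 limit its precision. Vps51, which overlaps Tm7sf2, had -0.43 at 10 mM and -0.67 at 30 mM (edgeR adjusted p = 0.514 and 0.0912). Akap9, which overlaps Cyp51, had -0.13 at 10 mM and -0.03 at 30 mM (edgeR adjusted p = 0.636 and 0.895). Whether counts are shared with these neighbours was not tested. Ebp and Dhcr7 had positive estimates, 0.17 and 0.19. Ebp had 41.3, 50.2 and 57.1 CPM against 39.9, 43.0 and 48.6 CPM, and Dhcr7 42.7, 46.7 and 65.6 CPM against 33.4, 44.5 and 50.1 CPM, with overlapping wells in both.

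Of the 10 tested genes upstream of lanosterol, none passed at 10 mM. All 10 estimates were below 0, with a median log2 fold change of -0.15. An unadjusted p under 0.05 was found for 4 of them, and for 1366 of all 13538 genes. Insig1 was the 1 gene of SREBP control and uptake that passed, lower, from 81.0 ± 10.6 to 63.1 ± 11.8 CPM (SD, n = 6; log2 fold change -0.38, SE 0.0978, edgeR adjusted p = 0.0383). It thus passed at both doses under the main settings, where 9.67% of all genes passed at 30 mM and 0.657% at 10 mM. Its call at 10 mM was not checked under the alternatives, where the number of all genes passing went as low as 21, against 89. Markers of cell types moved at 10 mM too: 3 of 11 oligodendrocyte markers rose (Mag, Cnp and Mal) and all 11 estimates were above 0. Of 6 tested microglia markers 1 passed, Cx3cr1, which rose by 0.29 (edgeR adjusted p = 0.0357), with a median of 0.09 over the 6. Of 8 tested mural and fibroblast markers 1 passed, Dcn, which fell by 0.39 (edgeR adjusted p = 0.0184), with a median of -0.25 over the 8. Of 6 tested neuron markers, 1 rose and 1 fell. Their part in the result on Insig1 was not tested.

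**Figure D3:**
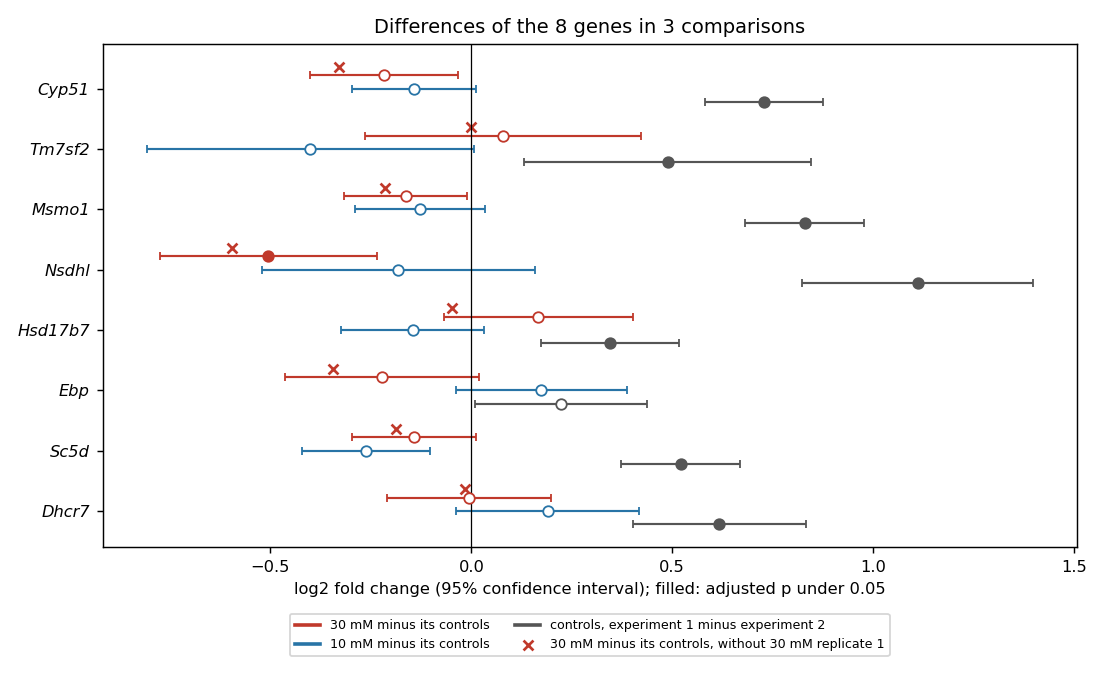
Log2 fold changes of the 8 genes (horizontal axis, with 95% confidence intervals) for 30 mM ethanol and 10 mM ethanol against their own controls and for the controls of experiment 1 against those of experiment 2; filled points passed an adjusted p of 0.05 and crosses give 30 mM without replicate 1. Nsdhl at -0.50 is the 1 filled point among the ethanol comparisons, and 7 of 8 are filled between the controls, up to 1.11.

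Whether the ethanol response differed between the doses was tested over all 24 wells. None of the 8 genes passed in edgeR's test of this difference, where 3.28% of 14655 genes did, 0.88% with a higher and 2.4% with a lower response at 30 mM. At an unadjusted p under 0.05 there was 1, Ebp, where 2522 of all 14655 genes had such a p. DESeq2 and limma voom called 0 of the 8. Ebp had a response of -0.22 at 30 mM and of 0.17 at 10 mM, a difference of -0.41 (SE 0.161, edgeR adjusted p = 0.152). Without replicate 1 at 30 mM, the well with the most Ebp in its group, the difference of Ebp passed (-0.55, edgeR adjusted p = 0.0274). Over all alternatives the edgeR, DESeq2 or limma adjusted p of Ebp ranged from 0.0274 to 0.272. For Nsdhl the difference was -0.33 (95% confidence interval -0.77 to 0.10, edgeR adjusted p = 0.441), so its passing at 30 mM and not at 10 mM does not show that the responses differ.

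**Figure D4:**
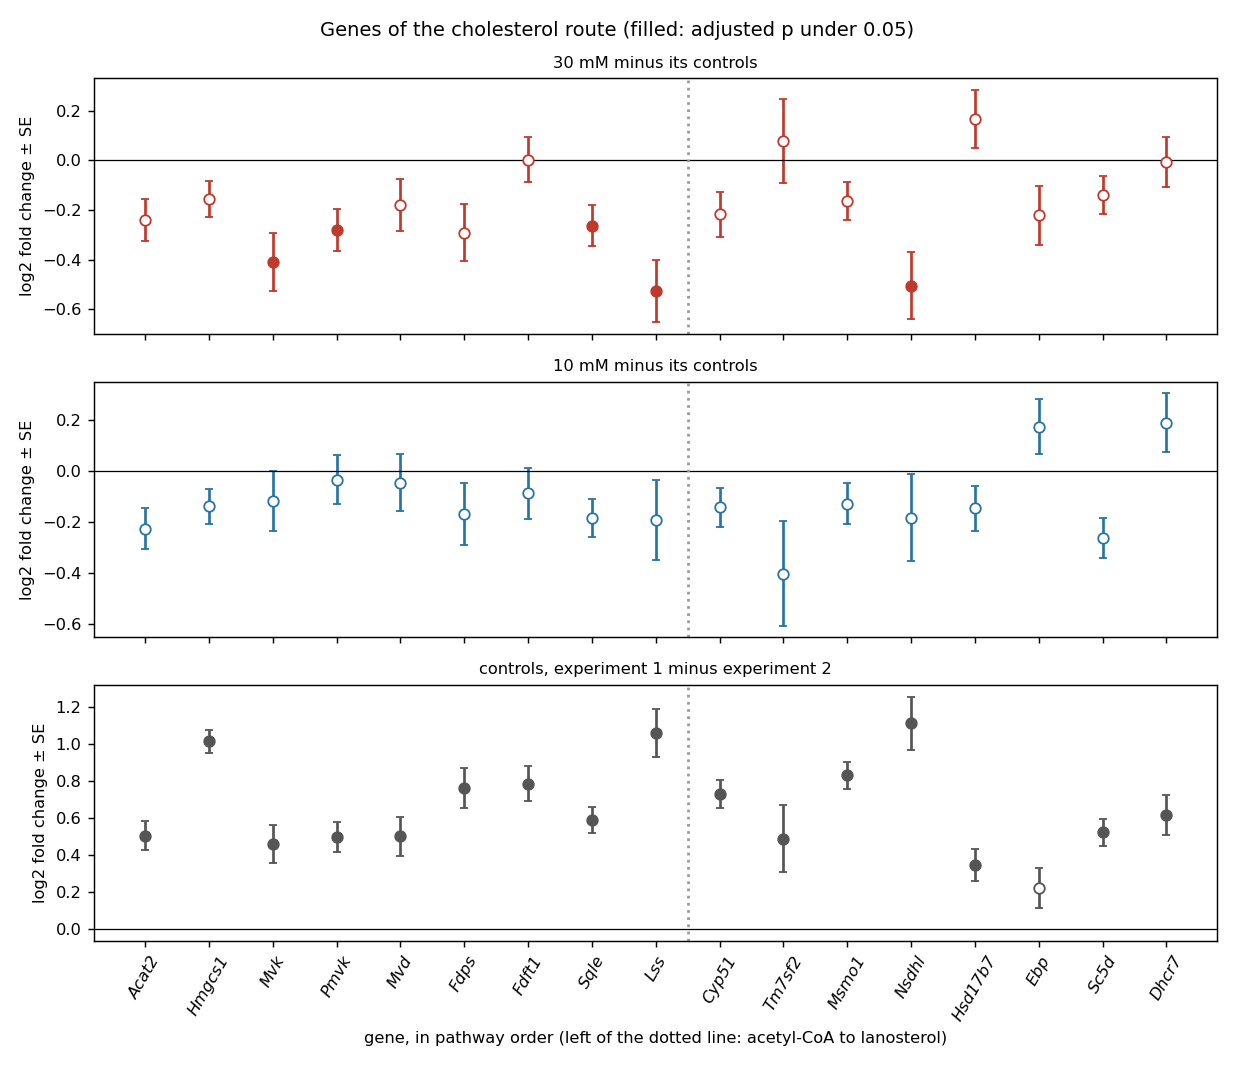
Log2 fold changes ± SE (vertical axes) of 9 genes from acetyl-CoA to lanosterol and of the 8 genes after lanosterol, in pathway order, at 30 mM, at 10 mM and between the controls; filled points passed an adjusted p of 0.05. At 30 mM the filled points are 4 upstream genes and Nsdhl, at 10 mM there are none, and between the controls 16 of 17 are filled, all above 0.

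The summed level of the 8 genes was 789 to 939 CPM in the controls of experiment 1 and 665 to 972 CPM at 30 mM. It was 505 to 565 CPM in the controls of experiment 2 and 464 to 531 CPM at 10 mM. On this sum the groups within an experiment overlapped, and the experiments did not. In experiment 1 the overlap came from replicate 1 at 30 mM alone. The other 30 mM wells had 665 to 755 CPM, below every control. Replicate 1 was the highest of its group for 7 of the 8 genes, so setting it aside lowers this range by itself. By their means, Cyp51, Msmo1, Nsdhl and Sc5d ran from the experiment 1 controls, the highest, through 30 mM and the experiment 2 controls to 10 mM. Tm7sf2 and Hsd17b7 had a mean at 30 mM above that of their controls, and Dhcr7 one at 10 mM above that of its controls, all with overlapping wells. Ebp had group means between 43.5 and 51.5 CPM in all 4 groups.

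Within groups the 8 genes varied together only loosely. After the mean of each group of 6 was taken off, Pearson's r between members over the 24 wells was positive in 27 of 28 pairs, with a median of 0.28 and a highest value of 0.56, for Nsdhl and Hsd17b7. Without replicate 1 at 30 mM, 20 of 28 pairs were positive, with a median of 0.14. These r values are descriptions: all genes of a well share its library, depth and cell makeup.

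The genes whose level across wells was most like the mean of the 8 members were named by the same r, among 9718 genes with a mean log2 CPM of at least 4. The 10 highest were Pcdh9 (0.85), Ugt8a (0.81), Tmem88b (0.78), Slc44a1 (0.77), Taldo1 (0.76), Syt11 (0.76), Pllp (0.75), Scrg1 (0.75), Ddr1 (0.75) and Nap1l5 (0.75). None is a gene of sterol synthesis or of its control. Without replicate 1 at 30 mM, 1 of these 10, Scrg1, was still among the first 10, and within experiment 2 alone none was. Of the sterol genes, Stard4 came nearest, at rank 18 with r of 0.74, followed by Erg28 (0.65) and Sqle (0.65). The myelinating oligodendrocyte markers Mbp (rank 11, 0.75) and Mobp (rank 13, 0.74) stood above Stard4, and the other markers of that list below it. These r values are over all 24 wells, with replicate 1 at 30 mM included.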

How the data were processed

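RNA of 24 wells was sequenced by 3′ tag sequencing with single-end reads of 100 bases, per the labels' protocols. The authors deposited raw counts per gene, 1 column for each well. Cutadapt 1.18, STAR and the build GRCm39 are named in the submitters' processing notes, without their roles; the counter, annotation release, use of strand and treatment of PCR duplicates are not given in the sources used here. Symbols were matched by Ensembl identifier for 52083 of 55359 genes.

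Each ethanol group was fitted with the controls of its own experiment, and the controls with each other, by edgeR's quasi-likelihood test (edgeR 4.0.16, R 4.3.3) with TMM normalization, filterByExpr (minimum count 10) and Benjamini-Hochberg adjustment over all genes tested. The difference between the responses was a contrast over all 24 wells. An adjusted p under 0.05 counted as passing, and 95% confidence intervals of log2 fold changes use the test's degrees of freedom. Levels are CPM on TMM library sizes of the 24 wells. Likeness used log2 CPM with a prior count of 2. All 8 members were named in every comparison. Of the other lists, genes that passed with ethanol or for the difference between responses could be named. Idi1, Lbr, Erg28, Srebf2, Hmgcs1, Akap9, Vps51, P2ry12 and Tmem119, and values between the controls, were chosen with their values known. The members and lists were chosen with earlier results of these data known. Well pairs within a group all differed by more than sampling noise (chi-square per degree of freedom 1.07 to 2.88). Some genes of the lists are not reported here, though list counts and medians include them. The scripts were tested on simulated data. Alternatives covered normalization, filter, DESeq2 1.42.0, limma voom (limma 3.58.1), the replicate number as a block, a joint fit of both experiments, thresholds and leaving out each well.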

Additional observations from a re-analysis of the deposited data

Results flagged for a closer look

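For each of the 8 genes in each of the 4 groups, the highest and lowest of the 6 wells were compared with the gap to the next well. Of these 32 series, 5 had a well far from the others, with a gap of 0.65 to 0.82 of the range of its group. A rate of 1 in 20, assumed and not estimated from these data, would give 1.6. The series share wells, so 5 against 1.6 is not a test. In experiment 1, Hsd17b7 was at 198 CPM in replicate 1 at 30 mM, with the next well at 128 CPM, and Sc5d at 137 CPM in replicate 5 of the controls, with the next at 153 CPM. In experiment 2, Nsdhl was at 12.2 CPM in replicate 6 of the controls, with the next at 18.1 CPM. Replicate 2 at 10 mM gave the other two, 64.7 CPM of Hsd17b7, below the next at 77.2 CPM, and 65.6 CPM of Dhcr7, above the next at 46.9 CPM.

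The response to ethanol differed between the experiments for 1 of 8 tested efflux and LXR genes, Apoe, the main lipid carrier of the brain (edgeR interaction term, 0.34, SE 0.0867, adjusted p = 0.0118). No gene of the other sterol lists passed. Of all 14655 genes 3.28% passed, so 1 gene over these lists is near the background. Apoe was higher with 30 mM ethanol by 0.38 (SE 0.0652, edgeR adjusted p = 7.02e-05) and had 0.02 with 10 mM (edgeR adjusted p = 0.947). The responses of 3 of 7 tested astrocyte markers differed between the experiments in the same direction, Gfap by 0.37, Aqp4 by 0.60 and Slc1a2 by 0.61 (edgeR adjusted p = 0.0103, 1.13e-05 and 3.21e-06).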

How the results depend on the processing

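Where a value changed with a setting, the cause was not tested unless named. Nsdhl passed at 30 mM under every alternative at the same threshold, with log2 fold changes from -0.59 to -0.45 and edgeR, DESeq2 or limma adjusted p from 0.00268 to 0.0395. At an adjusted p under 0.01, 0 members passed at 30 mM. Leaving out each well in turn gave 1 to 2 members at 30 mM, 0 to 1 for the difference between responses, the second value in each case without replicate 1 at 30 mM. At 10 mM, 1 member passed with at least 50 counts in 6 wells. Between the controls, Tm7sf2 was lost by DESeq2 and without replicate 3 of experiment 1 or replicates 2 or 5 of experiment 2. Estimates near 0 changed sign without passing: Dhcr7 at 30 mM was 0.029 with upper quartile scaling, 0.00141 with library totals, 0.039 with the stricter filter and -0.0477 to 0.0416 with wells left out; Tm7sf2 was -0.00146 to 0.151 and Hsd17b7 -0.0472 to 0.227 with wells left out; Msmo1's difference between responses was 0.0259 with upper quartile scaling and 0.0117 with the stricter filter.

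Counts over all genes were 641 at 30 mM at a threshold of 0.01. At 10 mM they were 150 at 0.1, 28 at 0.01, 32 with DESeq2, 21 in the fit of 24 wells and 37 to 95 with wells left out, against 89. For the difference between responses they were 854 at 0.1, 173 at 0.01 and 329 to 759 with wells left out, against 481, and between the controls 3162 with the stricter filter, against 5880. Upper quartile scaling changed the split of higher and lower genes, to 551 and 697 at 30 mM (400 and 880), to 222 and 203 for the difference (129 and 352) and to 2327 and 3593 between the controls (2873 and 3007), where library totals gave 2368 and 3541.

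With the replicate number as a block (replicate block), 1 member passed at 30 mM, 0 passed at 10 mM, 0 had a difference between responses that passed, and 7 passed between the controls, as without it; no call of a member changed. Over all genes the block gave 1208, 68, 461 and 5860. Over all genes, most same-numbered wells did not deviate together: 1 of 6 pairs in experiment 1 and 0 of 6 in experiment 2 had a correlation over 0.1. The highest was 0.23. For the 8 genes, however, replicate 1 was the highest well for 7 at 30 mM and for 6 in the controls of experiment 1. Depth limits the genes with few counts, above all Tm7sf2 and Nsdhl.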

Other observations

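Of 8 tested genes of cholesterol efflux and of the sterol sensor LXR, 5 were lower in the controls of experiment 1 and none higher. Among all genes, 22.3% were lower there. The median log2 difference of the 8 was -0.80, in the comparison where 7 of the 8 genes after lanosterol were higher. The other 3 had estimates above 0, up to 0.55, and did not pass. By their means, the LXR genes Nr1h3 and Nr1h2 had 9.68 and 46.2 CPM in the controls of experiment 1. In those of experiment 2 they had 6.57 and 44.0 CPM. Abca1 and Abcg1, exporters of cholesterol, differed by -0.76 (edgeR adjusted p = 1.29e-17) and -0.98 (edgeR adjusted p = 5.88e-11), and Soat1, which stores cholesterol as esters, by -0.84 (edgeR adjusted p = 1.49e-16). Microglia, whose markers were also lower there, express these genes as well, and their part was not tested. With ethanol, 1 of 7 tested genes of this list passed at 30 mM, where 9.67% of all genes did. It was Apoe, which went from 4539 ± 409 to 5875 ± 637 CPM (SD, n = 6, log2 fold change 0.38, edgeR adjusted p = 7.02e-05). At 10 mM, 0 of 8 passed by edgeR, where 0.657% of all genes did. An unadjusted p under 0.05 was found there for 1 of the 8, and for 1366 of all 13538 genes. In the same 30 mM wells the astrocyte markers Gfap, Aqp4, Slc1a2 and Aldoc were higher by 0.42, 0.56, 0.62 and 0.35 (edgeR adjusted p = 4.26e-05, 4.97e-08, 4.31e-09 and 7.41e-05). Their part in the result on Apoe was not tested.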
